A study of Mus musculus with 9 samples.

Results

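Cytosolic ribosomal protein genes were followed in alveolar macrophages, which live on the inner surface of the air sacs and clear inhaled particles, with and without the von Hippel-Lindau gene Vhl. The members are protein-coding mouse genes whose symbol starts with Rpl or Rps followed by a digit, together with Rplp0, Rplp1, Rplp2 and Rpsa, and without the Rps6k kinases, Rps19bp1 and pseudogenes. The rule names 85 genes in the GENCODE M21 annotation. Of these, 83 are among the 12003 measured genes, 51 of the large subunit and 32 of the small subunit, while Rps27 and Rpl10l were not analysed here. All 83 entered every comparison, since no further filter on low values was applied.

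The study asked how loss of Vhl changes the maturation, renewal and work of these cells. RNA with poly(A) tails was sequenced from cells of a lung rinse that had been enriched with beads for CD11c. Each library is a pool of 5 to 7 untreated C57BL/6-background mice, 8 to 12 weeks old and matched for sex. Vhl knockout pools have the genotype Vhl(flox/flox) / CD11c (cre/+), in which Cre recombinase made from the CD11c promoter can delete Vhl in CD11c-expressing cells. Cre control pools are Vhl(+/+) / CD11c (cre/+), so they carry Cre and unmodified Vhl. Floxed control pools are Vhl(flox/flox) / CD11c (+/+), so they carry the floxed alleles without Cre. There were 3 pools of each genotype. Because CD11c is also made by dendritic cells, the promoter and the beads do not single out macrophages.

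The ribosome joins a small subunit, which holds the mRNA and checks codon pairing, to a large subunit, which forms peptide bonds and passes the new chain through a tunnel. Each protein of these subunits is normally present once per ribosome, apart from the stalk proteins, and proteins made in excess of their partners are degraded. In mammals most ribosomal protein mRNAs begin with a C followed by a run of pyrimidines, and this tract places their translation under control of the kinase mTOR. Tissue macrophages share this machinery with all cells, and a few genes have paralogues with restricted expression.

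Ribosomal protein genes have many retrotransposed copies, and some copies are nearly identical to their source. The coding sequences of Rps27rt (1 exon, chromosome 9, 114982366 to 114982739, GRCm38) and Rps27 (chromosome 3, 90212522 to 90213651) are 100% identical over 255 bases, so short reads from their coding parts cannot be told apart. Rps27rt and the diverged paralogue Rps27l, which had the second highest and the lowest fold change among the members, differ at 61 of 255 coding bases (76.1% identity). Coding bases 4 to 63 of both are shown because they carry 19 of these differences, which are in capitals, and their reads can therefore be told apart.
Rps27rt: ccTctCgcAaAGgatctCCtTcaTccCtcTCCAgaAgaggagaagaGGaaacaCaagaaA
Rps27l: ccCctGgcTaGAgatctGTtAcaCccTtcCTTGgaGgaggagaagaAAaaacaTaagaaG

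Transcription start sites from RefSeq (GRCm38.p6) could be matched for 63 members by symbol. Shown are the 40 bases before and the first 20 bases after the annotated start for the matched members averaging 5 or more normalized reads that had the 4 highest and the 4 lowest fold changes in the knockout. Capitals mark the longest run of C and T within 20 bases on either side of the start.
Rpl10: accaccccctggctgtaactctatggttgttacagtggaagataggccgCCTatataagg
Rps27rt: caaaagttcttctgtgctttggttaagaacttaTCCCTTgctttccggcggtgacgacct
Rps12: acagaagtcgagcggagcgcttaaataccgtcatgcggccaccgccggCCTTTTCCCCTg
Rplp2: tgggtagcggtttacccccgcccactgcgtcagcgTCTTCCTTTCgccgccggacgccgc
Rpl27: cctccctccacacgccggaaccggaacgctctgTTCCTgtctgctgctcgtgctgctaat
Rpl7l1: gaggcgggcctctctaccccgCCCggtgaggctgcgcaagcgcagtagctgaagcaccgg
Rpl22l1: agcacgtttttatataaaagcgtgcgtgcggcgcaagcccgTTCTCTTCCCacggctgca
Rps27l: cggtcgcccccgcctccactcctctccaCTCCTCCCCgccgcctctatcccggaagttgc

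A pyrimidine run of 10 or more bases lay in this window in 20 of the 63 members (31.7%), against 7.14% of 9241 measured genes with a start site. CTTTTC or CTTTCC, searched on the sense strand, occurred in 13 members (20.6%), against 2.94% of measured genes. On the opposite strand they occurred in 1 member (1.59%), against 2.30% of measured genes. The run did not sort the members by fold change. Of the 20 members with a run of 10 or more, 7 rose in the knockout and the median log2 fold change was 0.25. Of the 43 with a shorter run, 17 rose and the median was 0.23. Rplp2 and Rpl22l1 both hold a run of 10 bases, as the sequences above show, and stood at opposite ends of the fold changes. Annotated starts can lie several bases from the start used in these cells.

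Libraries held 18201116 to 25861174 reads assigned to the measured genes. Values are normalized reads, meaning reads scaled to a common library size (CPM with a TMM factor), without correction for gene length. Vhl had 2.02, 2.14 and 2.52 normalized reads in the knockout and 14.9 to 25.3 in the 6 controls (log2 fold change -2.75, limma adjusted p = 6.06e-08). All 17 alveolar macrophage markers were measured, with summed levels of 46494 to 58860 in the knockout, 34069 to 39821 in Cre controls and 34960 to 39556 in floxed controls. Of these markers 7 rose (41.2%) and 3 fell (17.6%), against 19.7% and 20.2% of all genes. Other lists are given by their measured members called by limma. Of 10 monocyte and interstitial macrophage markers 2 were higher and 5 lower, with sums of 259 to 268 in the knockout, 205 to 230 in Cre controls and 229 to 301 in floxed controls. Several of the lower calls depended on single libraries, the least stable being lost without any 1 of 7 (limma adjusted p up to 0.196). Against Cre controls alone 2 of the 10 were higher and 1 lower, and against floxed controls alone 1 was higher and 6 lower. In this list and in the alveolar macrophage list the most abundant marker, which weighs most in the sum, was among those that rose. Of 3 T and NK cell markers 1 was lower, of 2 B cell markers 1 was higher, of 5 neutrophil markers 1 was higher, and of 8 lung epithelial markers 1 was higher and 2 lower. Of 4 red cell markers 0 were called. The B cell call was lost without any 1 of 8 libraries (limma adjusted p up to 0.132) and the neutrophil call without any 1 of 6 (up to 0.203). Against floxed controls alone 0 markers of these 2 lists were higher, and 1 B cell marker was lower. The defining T cell gene Cd3e was not analysed here. Of 14 measured dendritic cell markers, 12 fell and 0 rose by limma (0 also at an unadjusted p under 0.05, by edgeR and by DESeq2). Their summed levels were 59.2 to 68.6 in the knockout, 164 to 357 in Cre controls and 138 to 281 in floxed controls. Mitochondrially encoded genes took 1.77 to 2.39% of reads in the knockout, 3.29 to 3.82% in Cre controls and 2.67 to 5.59% in floxed controls. These marker shifts run alongside the knockout contrast, and their part in the ribosomal protein values was not tested. In bulk samples a change in the number of cells of a type and in the RNA per cell cannot be told apart.

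A pair of libraries stood apart in the ribosomal protein genes. Floxed control 3 had the lowest level of the 9 libraries in 79 of 83 members, against 18.3% of all genes. Knockout 1 had the highest level in 66 members, against 13.7% of all genes. For this reason results are given with all libraries and, where the value moves, without the library in question.

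Knockout macrophages had modestly higher levels of many ribosomal protein mRNAs. The 83 genes took 3.00, 2.75 and 2.73% of reads in the knockout libraries. They took 2.58, 2.46 and 2.46% in Cre controls and 2.59, 2.53 and 2.11% in floxed controls. Within each genotype library 1 had the highest share. All 3 knockout libraries lay above all 6 controls, with a mean of 2.83 ± 0.152% (SD, n = 3) against 2.46 ± 0.180% (SD, n = 6). Without floxed control 3 the control mean was 2.53 ± 0.0603% (SD, n = 5), still below every knockout library. Large subunit genes took 1.61 ± 0.0886% in the knockout and 1.40 ± 0.102% in controls, and small subunit genes 1.22 ± 0.0636% and 1.06 ± 0.0782%. No test is given for these sums, since the members were chosen with results known.

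**Figure D1:**
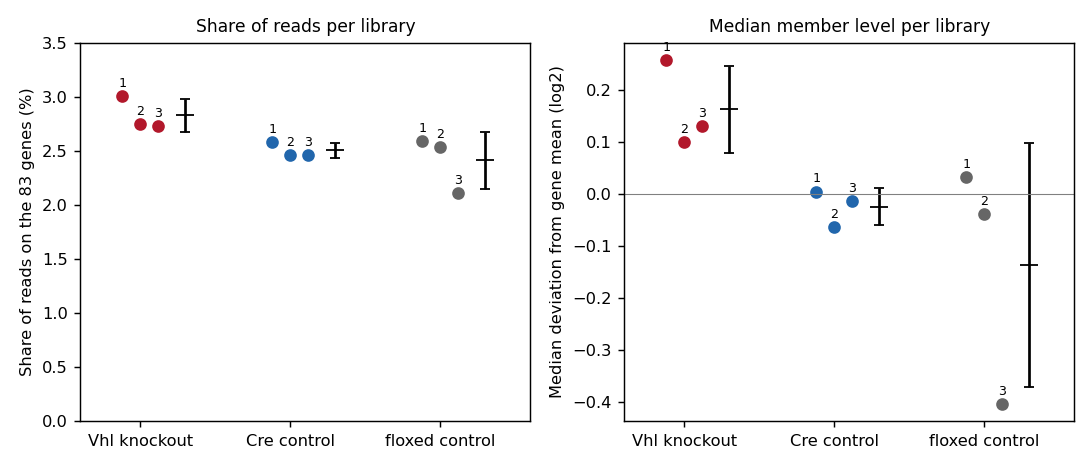
Left, share of reads (%) on the 83 ribosomal protein genes in each library. Right, the median over the 83 genes of the deviation of log2(normalized reads + 1) from each gene's mean. Points are libraries with their replicate number, and bars are mean ± SD of 3 libraries per genotype. Knockout libraries lie at 2.73 to 3.00% on the left, above all controls, and floxed control 3 lies lowest in both plots.

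By gene, limma called 37 of the 83 members higher in the knockout than the mean of the 2 control groups (44.6%) and 0 lower. This is the comparison against both controls throughout, and the 2 control groups taken alone are given further on. Over all 12003 genes 39.8% were called, 19.7% higher and 20.2% lower, so with all libraries the share called higher was larger among the members than in the table. At an unadjusted p under 0.05, 48 members were higher and 1 was lower. EdgeR called 34 higher and 0 lower, and DESeq2 48 higher and 1 lower. The fold change was above 0 in 78 of 83 members, against 5958 of 12003 genes, and its median on the log2 scale was 0.25 for the members and -0.00216 for all genes. The changes were small, with called members between 1.16-fold and 1.44-fold higher, and 0 members reached 2-fold. In 50 members every knockout library exceeded every control, against 19.3% of all genes, and in 0 members every knockout library was below every control, against 18.5% of all genes. Without floxed control 3 the first count was also 50, against 21.1% of all genes. Large and small subunits had similar counts, with 23 of 51 and 14 of 32 members called higher.

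The count of called members depended on single libraries. It was 12 without knockout 1, 22 without knockout 2, 18 without knockout 3, 19 without Cre control 2 and 22 without Cre control 3, against 37 with all libraries. These counts are 14.5, 26.5, 21.7, 22.9 and 26.5% of the members, against 16.0, 15.4, 15.2, 17.9 and 17.6% of all genes. Without knockout 1 the members were thus not called higher more often than the table. Without floxed control 3 the count was 45, including all 37 called with every library, the median log2 fold change was 0.19, and 2 members were called lower, Rps27l and Rpl22l1. The median stayed between 0.19 and 0.29 under every omission of 1 library. Of the 37, 25 lost the call without at least 1 library. The other 12 were called higher under all 19 alternatives that were run, among them Rpl10, Rpl22, Rpl23a, Rplp1, Rplp2, Rps4x, Rps12, Rps20, Rps26, Rps27rt and Rps28.

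**Figure D2:**
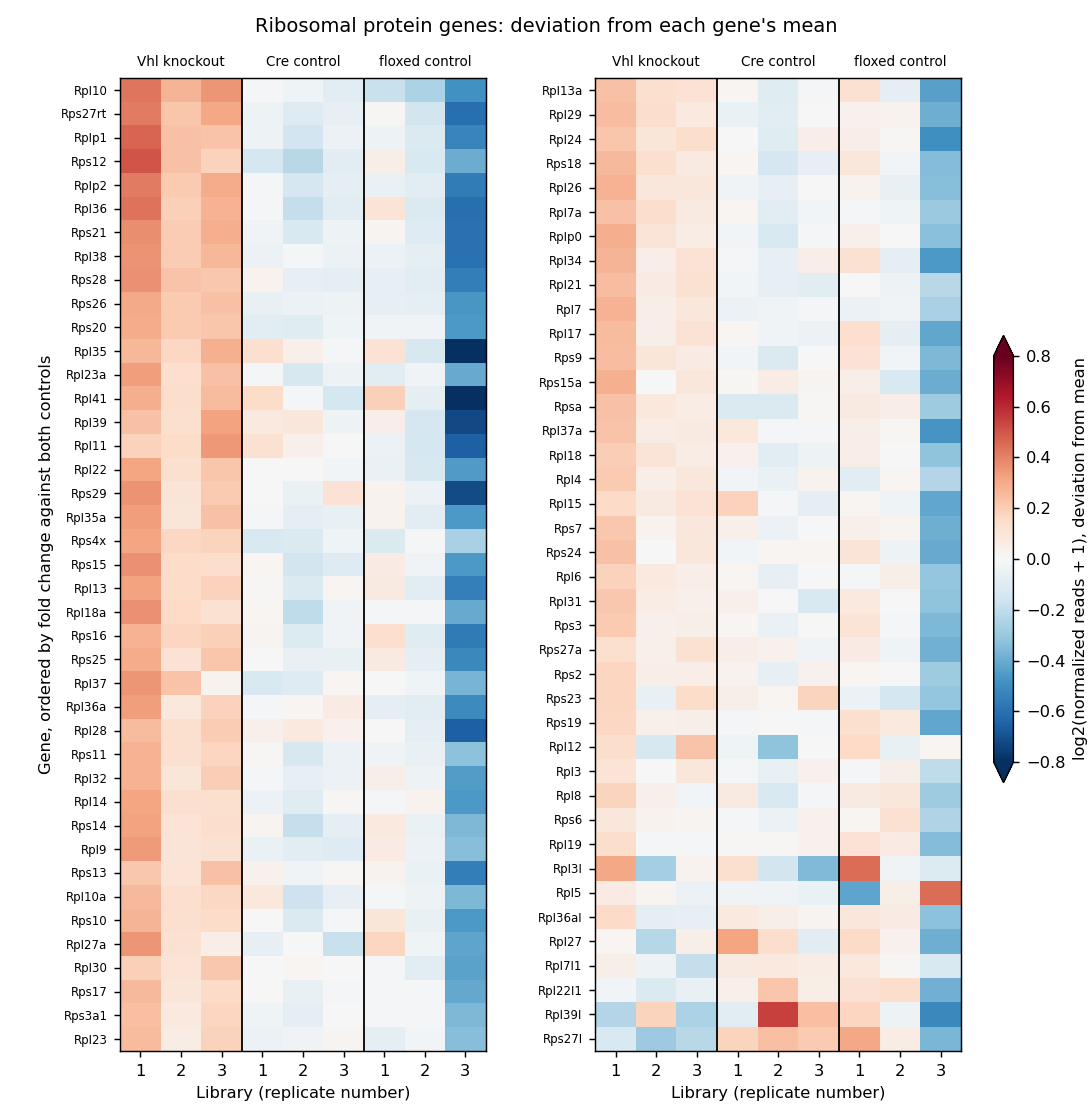
Deviation of each of 81 of the 83 genes from its own mean over 9 libraries, on the scale of log2(normalized reads + 1), with red above and blue below the mean. Genes run from the highest to the lowest fold change in the knockout, first down the left panel and then down the right. Knockout columns are mostly red, Cre control columns are near the mean, and floxed control 3 is below the mean in 79 of the 81 genes shown.

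Rpl10, which joins the large subunit late in its assembly, showed the largest rise against both controls among the members (ENSMUSG00000008682, chromosome X, 74270812 to 74273135). It had 653, 586 and 619 normalized reads in the knockout, against 483, 473 and 456 in Cre controls and 429, 407 and 346 in floxed controls. The groups did not overlap. Against Cre controls alone Rps12 and Rpl36 had larger log2 fold changes, at 0.46 and 0.40, than Rpl10, at 0.395. The log2 fold change against both controls was 0.53, with an SE of 0.0721 and a limma adjusted p of 0.000307. Reads of Rpl10 are not cleanly its own, since 92.0% of its 61-base windows, the length of a read, also occur in transcripts of other genes.

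The acidic stalk, which recruits the translation factors that hydrolyse GTP, is built from Rplp0, Rplp1 and Rplp2 and anchored by Rpl12. Rplp1 (ENSMUSG00000007892, chromosome 9, 61913284 to 61914542) had 1032, 881 and 878 normalized reads in the knockout, against 726, 672 and 725 in Cre controls and 728, 691 and 519 in floxed controls. Its log2 fold change was 0.46, with an SE of 0.106 and a limma adjusted p of 0.00643. Rplp2 (ENSMUSG00000025508, chromosome 7, 141447370 to 141451585) had 508, 441 and 468 in the knockout, against 379, 347 and 362 in Cre controls and 367, 357 and 259 in floxed controls. For both genes every knockout library lay above every control. The scaffold of the stalk, Rplp0, also lay above every control, at 1161 to 1362 against 887 to 1146, but did not pass the test (log2 fold change 0.22, limma adjusted p = 0.0839). Per kilobase of transcript, Rplp1, Rplp2 and Rps9 were the most abundant members, with means over all libraries of 1526, 920 and 891 normalized reads.

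Of 7 small subunit genes whose proteins line the mRNA exit and the platform, 5 rose (71.4%). This compares with 44.6% of all members and 19.7% of all genes. Against Cre controls alone 2 of the 7 rose (28.6%, against 12.0% of all members and 16.3% of all genes). Against floxed controls alone 4 rose (57.1%, against 47.0% of all members and 17.5% of all genes). Rps26, which contacts the mRNA just upstream of the start codon, had 271, 254 and 258 normalized reads in the knockout, against 210.5, 212 and 213 in Cre controls and 209.9, 207 and 159 in floxed controls. Every knockout library lay above every control, with a log2 fold change of 0.38 (SE 0.0837, limma adjusted p = 0.00553). Rps28 had 190.5 to 211 in the knockout and 111 to 167 in controls, and Rps21 had 172 to 193 and 98.3 to 151. Rps14 rose as well, a call lost without any 1 of 6 libraries (limma adjusted p up to 0.156), while Rpsa and Rps7 did not pass the test. Exons of Rps28 overlap Kank3 on the opposite strand, and no source used here states which strand was counted. In all, 13 members overlap exons of other genes, and reads of such partners cannot be told apart.

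At the mRNA entry and decoding side 2 of 6 members rose (33.3%, against 44.6% of all members and 19.7% of all genes). Rps12 (ENSMUSG00000061983, chromosome 10, 23785183 to 23787275) had 395, 328 and 317 normalized reads in the knockout, against 252, 238 and 261 in Cre controls and 288, 256 and 211 in floxed controls. Its log2 fold change was 0.46, with an SE of 0.101 and a limma adjusted p of 0.00486, with no overlap between knockout and controls. Rps15, whose protein sits close to the decoding site, rose with a log2 fold change of 0.33 (limma adjusted p = 0.0370), a call lost without any 1 of the knockout libraries, Cre control 2 or Cre control 3 (up to 0.152). Rps2, Rps3, Rps23 and Rps27a, the last made as a fusion with ubiquitin, had fold changes of 0.13 to 0.15 on the log2 scale and did not pass.

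Of 9 large subunit genes whose proteins line the peptide tunnel and its exit, 3 rose (33.3%, against 44.6% of all members and 19.7% of all genes). They were Rpl23a, Rpl26 and Rpl38, although Rpl26 passed narrowly and lost the call without any 1 of 7 libraries (limma adjusted p up to 0.196). Rpl38 had 154, 139 and 144 normalized reads in the knockout, against 116, 119 and 116.5 in Cre controls and 116, 114 and 79.1 in floxed controls (log2 fold change 0.41, limma adjusted p = 0.0132). Rpl19, which encodes another tunnel-exit protein, had 433 to 484 in the knockout and 345 to 474 in controls. It stood among the members with the lowest fold changes (0.06 on the log2 scale, limma adjusted p = 0.671). Rpl5 and Rpl11 enter the large subunit as a pair with a small ribosomal RNA, and unassembled they bind Mdm2, which restrains p53. Rpl11 rose (log2 fold change 0.34, limma adjusted p = 0.0435), but lost the call without any 1 of the knockout or Cre control libraries, with adjusted p up to 0.169. Rpl5 averaged 11.5 ± 0.490 in the knockout (SD, n = 3) and 11.5 ± 2.46 in controls (SD, n = 6). Of 18 measured genes whose human counterparts are mutated in Diamond-Blackfan anaemia, a failure of red cell production, 6 rose (33.3%). This compares with 44.6% of all members and 19.7% of all genes, and the median log2 fold change of the 18 was 0.21.

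Others among the 10 highest members were Rpl36, with 154 to 183 normalized reads in the knockout and 88.1 to 145 in controls, and Rps27rt, with 248 to 284 and 139 to 213. Both rose, with limma adjusted p of 0.0205 and 0.00799. At the low end, Rps6, whose protein is the classic substrate of the S6 kinases, had 431 to 453 in the knockout and 359 to 462 in controls. Its log2 fold change was 0.07 (limma adjusted p = 0.490), and the groups overlapped. All 4 X-linked members lay above every control in the knockout, as did 50 of the 83 members and 19.3% of all genes. Of the 4, Rpl10, Rpl36a and Rps4x passed the test while Rpl39 did not (limma adjusted p = 0.0783).

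**Figure D3:**
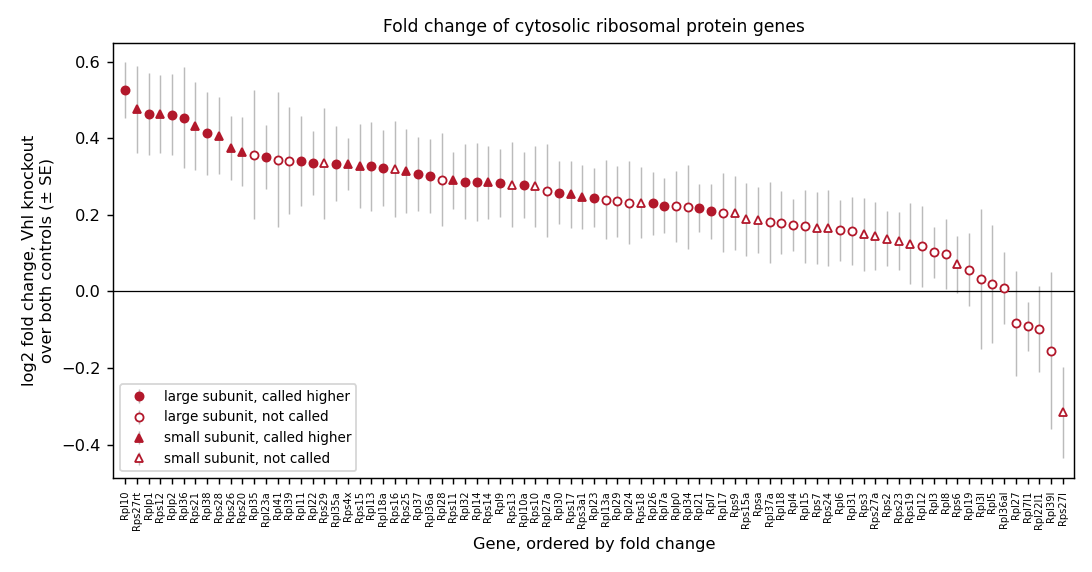
Log2 fold change of each of 81 of the 83 genes in the Vhl knockout over the mean of both controls (vertical axis), with bars of 1 SE from limma and genes ordered by fold change. Filled symbols mark genes called higher, 36 of those shown, with circles for large and triangles for small subunit genes. The values run from 0.53 for Rpl10 to -0.32 for Rps27l, and 76 of the 81 are above 0.

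Most paralogues stood near the bottom of the order, while Rps27rt, a retrotransposed copy also listed as a paralogue, was second highest. The other 6 paralogues among the members, Rps27l, Rpl39l, Rpl22l1, Rpl7l1, Rpl36al and Rpl3l, were all among the 10 lowest members. By limma 0 of the 6 was called in either direction, with 1, Rps27l, below an unadjusted p of 0.05. EdgeR called 0 of them and DESeq2 called Rps27l lower. Among the other 77 members, which include Rps27rt, 37 rose and 76 had a fold change above 0. Rps27l, a gene that p53 can induce (ENSMUSG00000036781, chromosome 9, 66946086 to 66949516), had 45.5, 40.3 and 42.4 normalized reads in the knockout. It had 56.2, 58.7 and 57.4 in Cre controls and 61.5, 51.8 and 38.3 in floxed controls, so floxed control 3 lay below all knockout libraries. The log2 fold change was -0.32 against both controls (SE 0.120, limma adjusted p = 0.0605) and -0.42 against Cre controls (limma adjusted p = 0.0403). Without floxed control 3 it was -0.41 against both controls (limma adjusted p = 0.00158). In the same libraries Rps27rt was 265 ± 17.9 in the knockout (SD, n = 3) and 192 ± 26.9 in controls (SD, n = 6).

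Rpl22 and its paralogue Rpl22l1 lay apart in the same way. Rpl22 had 210, 184 and 197 normalized reads in the knockout, against 168, 168 and 166 in Cre controls and 162, 154 and 122.7 in floxed controls (log2 fold change 0.33, SE 0.0835, limma adjusted p = 0.00992). Rpl22l1 had 35.0, 32.8 and 34.2 in the knockout, against 36.6, 41.7 and 37.0 in Cre controls and 38.9, 39.4 and 27.03 in floxed controls (log2 fold change -0.10, limma adjusted p = 0.522). Leaving out floxed control 3, Rpl22l1 was called lower, at -0.18 (limma adjusted p = 0.0372). The difference between the 2 fold changes was not tested. Of the 7 measured partners of paralogues, Rpl7, Rpl10, Rpl22, Rpl36a and Rps4x rose, and Rpl3 and Rpl39 did not pass. Rpl7l1, which acts in nucleolar assembly of the large subunit, had 62.7 to 74.2 in the knockout and 65.9 to 76.2 in controls. Rpl36al had 89.0 to 104 and 74.3 to 99.6. Rpl3l, a muscle paralogue, and Rpl39l, known from testis, were near the lower edge of the table, at 1.79 to 3.17 against 1.64 to 3.59 and at 0.840 to 1.48 against 0.529 to 2.20. At such levels log2(value + 1) understates changes, which limits what the rank of Rpl3l and Rpl39l can show. The pseudogene Rps4l, outside the rule, fell, at 19.6 to 23.0 against 20.2 to 30.4 (log2 fold change -0.32, limma adjusted p = 0.0313), and lost the call without any 1 of 5 libraries (up to 0.132).

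Each control was then used alone. Both comparisons share the knockout libraries. Against floxed controls, which share the floxed alleles with the knockout, limma called 39 members higher (47.0%) and 0 lower, while 34.3% of all genes were called, 17.5% higher and 16.8% lower. The median log2 fold change of the members was 0.30. At an unadjusted p under 0.05, 56 members were higher and 0 lower, edgeR called 34 higher and 0 lower, and DESeq2 49 higher and 0 lower. Of all genes called, 51.0% were higher, against 39.2% without a normalization factor and 40.1% with library size taken without the members, where 31 and 32 members were higher and 0 lower. The count was 25 without floxed control 3 (30.1%, against 16.0% of all genes), with 1 member, Rps27l, lower. Without floxed control 1 it was 59 (71.1%, against 17.1% of all genes). It was 16, 24 and 18 without knockout 1, 2 or 3, which is 19.3, 28.9 and 21.7% of the members. Of all genes 14.2, 14.0 and 13.4% were called higher in these fits. Without Cre control 3, which enters only the estimate of the spread, the count was 24 (28.9%, against 16.1% of all genes).

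Against Cre controls, which share the Cre transgene with the knockout, limma called 10 members higher (12.0%) and 1 lower (1 of 83), while 34.0% of all genes were called, 16.3% higher and 17.7% lower. The share called higher was thus no larger than in the table, although edgeR called 10 higher and 1 lower and DESeq2 23 higher (27.7%) and 1 lower. With a replicate block limma called 19 higher (22.9%, against 16.8% of all genes) and 1 lower, so this comparison with the table depended on the fit. At an unadjusted p under 0.05, 24 members were higher and 1 was lower. The median log2 fold change was 0.19, and 77 of 83 values were above 0. The 10 members included Rpl10, Rpl23a, Rplp1, Rplp2, Rps4x, Rps12, Rps20, Rps26 and Rps27rt, and the member called lower was Rps27l. This count depended most on a library that is in neither group. Floxed control 3 enters the fit through the common estimate of the spread, and without it 39 members were called higher (47.0%), including all 10, against 17.8% of all genes. A fit to only the 6 libraries of these genotypes also called 39 higher (47.0%, against 18.2% of all genes) and 1 lower. The count was 16 without floxed control 1 (19.3%, against 17.2% of all genes). It was 3, 4 and 5 without knockout 1, 2 or 3, which is 3.61, 4.82 and 6.02% of the members. Of all genes 13.4, 12.9 and 12.8% were called higher in these fits. Without any 1 of the Cre controls the count was 4 (4.82%), against 13.0 to 15.1% of all genes. Rps27l lost its call without any 1 of the knockout or Cre control libraries or floxed control 2. The spread of the members within a genotype, as the median coefficient of variation, was 6.62% in the knockout, 3.75% in Cre controls and 16.2% in floxed controls.

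Cre controls against floxed controls differed in 0 of 83 members by limma, while 0.167% of all genes were called, 0.0667% higher and 0.100% lower. At an unadjusted p under 0.05, 5 members were higher in Cre controls and 0 lower, and edgeR and DESeq2 called 0. Without floxed control 1 these counts were 26 and 1, and without floxed control 3 or any 1 of the Cre controls 2 and 0, with 0 members called by limma in each case. The median log2 fold change was 0.10 with all libraries, 0.18 without floxed control 1 and -0.03 without floxed control 3. Among the 5 members with the largest difference between the controls were Rpl39l, Rpl35, Rpl11 and Rpl39, with log2 fold changes of 0.31 to 0.36 and limma adjusted p of 0.612 to 0.673. Since the knockout libraries cancel, a difference between the 2 knockout fold changes of a gene equals this contrast, and no member passed.

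Floxed control 3 differed from floxed controls 1 and 2 by a median of -0.41 on the log2 scale over the members, and by -0.02 over all genes. It was below both in 81 members, and Rpl5 was an exception, with 15.9 normalized reads against 8.26 and 11.8. The deficit was deeper in members with shorter coding sequences, with a median of -0.55 in 11 members under 300 coding bases, -0.42 in 48 of 300 to under 600 and -0.33 in 24 of 600 or more. Over 83 members the Spearman correlation of coding length with this difference was 0.62. Over 11935 genes of all kinds, exon length correlated with the same difference at 0.39, so shorter genes in general were lower in this library. For the knockout fold change against both controls the correlation with coding length was -0.39 over the members and 0.02 with exon length over all genes. Against Cre controls, which leaves that library out of the fold change, it was -0.23. The medians of the fold change against Cre controls in the 3 length classes were 0.23, 0.19 and 0.16. These correlations are descriptions, since all points come from the same 9 libraries, and the part of length in the fold changes was not tested.

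**Figure D4:**
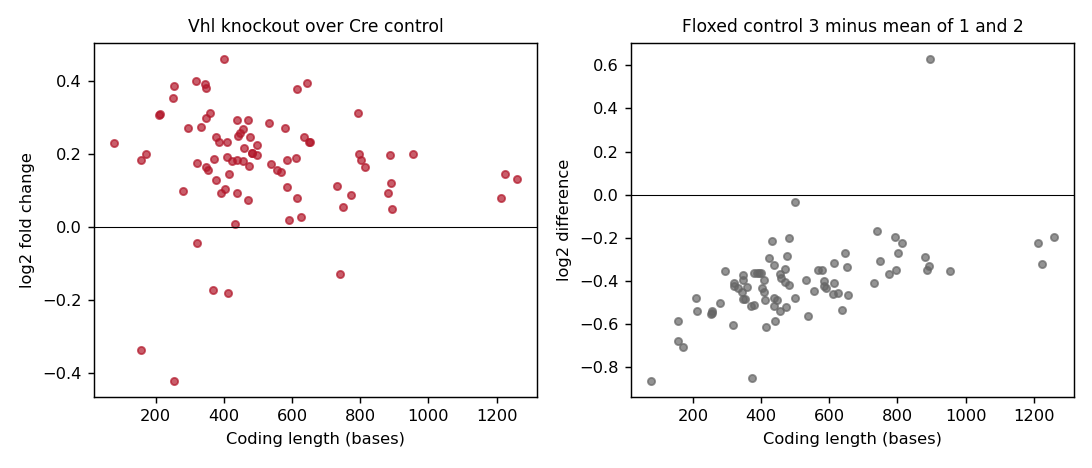
Coding length in bases (horizontal axis) of the 83 genes against the log2 fold change of the knockout over Cre controls (left) and against the difference of floxed control 3 from the mean of floxed controls 1 and 2 on the log2 scale (right). Each point is a gene. The right panel rises with length (Spearman correlation 0.62), the left falls slightly (-0.23), and 77 of 83 points on the left are above 0.

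Where reads could match copies elsewhere in the genome, the deposited table splits them among genes. Of the 83 members, 44 had over 50% of their windows in transcripts of other genes, and 35 measured copies, mostly processed pseudogenes, were tied to 33 members. The copies took 0.514 ± 0.0286% of reads in the knockout (SD, n = 3) and 0.460 ± 0.0237% in controls (SD, n = 6). Of the 35 copies, 7 were called higher (20%) and 0 lower by limma, against 19.7% and 20.2% of all genes, so copies were called higher about as often as genes in general.

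For several members nearly all reads were assigned to a copy. The pseudogene Gm15500 had 704 to 775 normalized reads in the knockout and 515 to 661 in controls, and held 98.3% of the summed level of itself and Rpl5. Gm10275 held 95.6% of the sum with Rpl12, Rpl27-ps3 94.8% of that with Rpl27, and Gm7536 90.6% of that with Rpl27a. Per kilobase of transcript Rpl5 was among the 3 lowest members, with a mean over all libraries of 5.64 normalized reads alone and 329 summed with its copy. Summed with its copy, Rpl5 had 751 ± 35.7 normalized reads in the knockout (SD, n = 3) and 635 ± 51.7 in controls (SD, n = 6), a log2 fold change of 0.24 (limma adjusted p = 0.0302) where Rpl5 alone had 0.02. Summing also brought Rpl27a (0.29, limma adjusted p = 0.0334) and Rps23 (0.24, limma adjusted p = 0.0437) past the test. Rpl10a, Rpl11 and Rpl37 no longer passed, with limma adjusted p of 0.0673, 0.101 and 0.0504. Rpl10 with its copy Rpl10-ps3 kept a log2 fold change of 0.44 (limma adjusted p = 0.0016). The number of members called higher was 37 with sums as well, and the median was 0.24. Among the 43 members that share no window with another measured gene, 23 were called higher (53.5%), with a median of 0.23. These 43 can still share windows with unmeasured genes, as does Rps27rt, with 90.8% of its windows in Rps27. Among the 14 members with under 20% of their windows in transcripts of any other gene, 5 were called higher (35.7%), with a median of 0.17. Both shares compare with 44.6% of all members and 19.7% of all genes. These 14 include the paralogues Rpl3l, Rpl39l, Rpl7l1 and Rps27l, none of which was called.

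**Figure D5:**
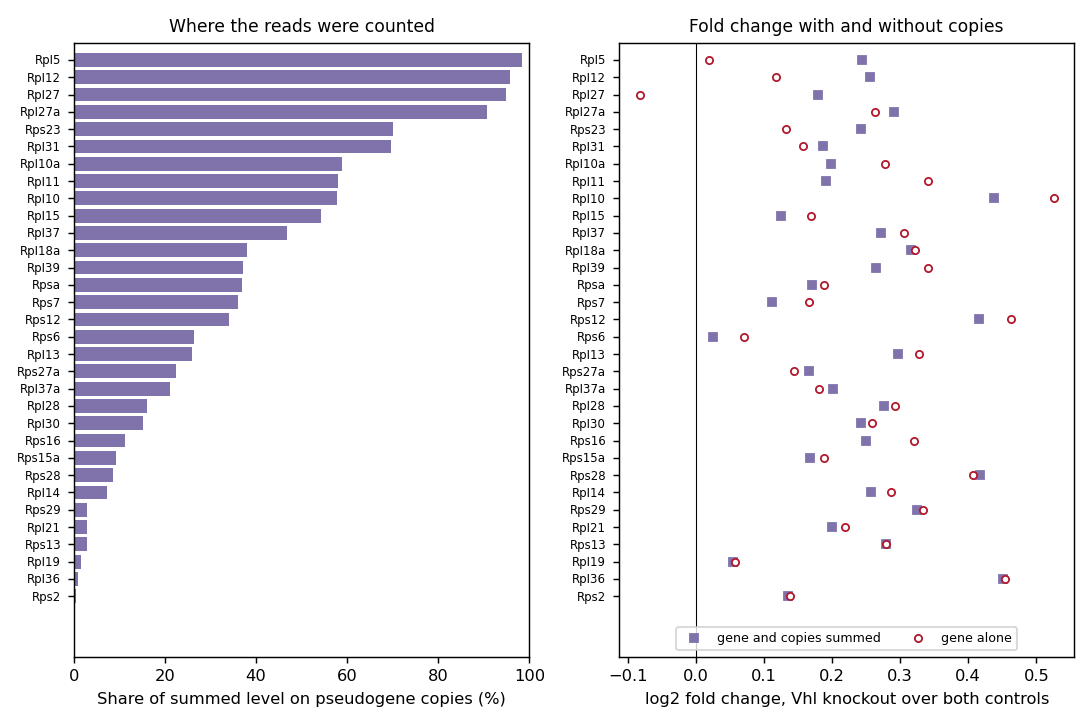
Left, share (%) of the summed normalized reads of each of 32 of the 33 genes and its measured copies that was assigned to the copies. Right, log2 fold change of the knockout over both controls for the gene alone (circles) and for the sum (squares). Rpl5, Rpl12, Rpl27 and Rpl27a have over 90% on copies, and the fold change of Rpl5 is 0.02 alone and 0.24 summed.

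Other genes of the translation machinery were called in both directions. Among 3 ribosomal protein genes outside the symbol rule, Fau rose, which encodes a small subunit protein fused to a ubiquitin-like protein. It had 71.1 to 82.6 normalized reads in the knockout and 32.5 to 72.6 in controls (log2 fold change 0.58, limma adjusted p = 0.0420). EdgeR did not call it, and limma did not without any 1 of 6 libraries (adjusted p up to 0.139). Rack1, a signalling scaffold on the small subunit, had 765 to 874 against 680 to 832 and did not pass (limma adjusted p = 0.547). Of 19 other mRNAs known to begin with a pyrimidine tract, 5 rose (26.3%) and 2 fell (10.5%), against 19.7% and 20.2% of all genes. Some of the 19 are also in the lists of translation factors. Tpt1 and Eif4b rose with log2 fold changes of 0.37 and 0.27, Eef1d rose by 0.24, and Hnrnpa1 and Eef1g fell by 0.47 and 0.21. Tpt1 lost the call without knockout 1 (limma adjusted p = 0.0666), and Eef1d and Eef1g each without any 1 of 3 libraries (up to 0.108 and 0.120).

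Mitochondrial ribosomal protein genes were called less often than the table as a whole. Of 77, limma called 6 lower (7.79%, against 20.2% of all genes) and 0 higher (against 19.7%), with 3 higher and 13 lower at an unadjusted p under 0.05 and 6 lower and 0 higher by both edgeR and DESeq2. Their median log2 fold change was -0.05. Of those called, Mrps2, Mrpl18 and Mrpl16 had log2 fold changes of -0.30, -0.30 and -0.33. Factors that assemble ribosomes in the nucleolus and cytoplasm had a median of -0.08, and 4 of 61 rose (6.56%) while 13 fell (21.3%), against 19.7% and 20.2% of all genes. Ddx21, an RNA helicase of the nucleolus, had 130 to 137 normalized reads in the knockout and 154 to 184 in controls (log2 fold change -0.40, limma adjusted p = 0.000427). Wdr12 and Utp18 fell by 0.43 and 0.44 on the log2 scale, Ddx10 and Sbds rose by 0.31 and 0.24 (Sbds not without knockout 1 or 2, limma adjusted p up to 0.106), and the abundant nucleolar protein gene Ncl was not called. Of 20 genes of the RNA polymerase I machinery, which transcribes ribosomal RNA, 2 rose (10%) and 3 fell (15%), fewer than in all genes. Ribosomal RNA itself was not measured by this poly(A) assay.

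Among 36 initiation factor genes 3 rose (8.33%) and 8 fell (22.2%), against 19.7% and 20.2% of all genes. Eif4a2 was at 0.39 and Eif4g2 at -0.31 on the log2 scale. Among 8 genes of elongation 3 rose and 3 fell (37.5% each). The elongation factor gene Eef1a1 had 7121 to 7823 normalized reads in the knockout and 5337 to 6491 in controls, and rose (log2 fold change 0.28, limma adjusted p = 0.0452), but not without any 1 of the knockout or Cre control libraries (up to 0.173). Eef2k, the kinase that inhibits elongation factor Eef2, rose far more than any ribosomal protein gene. It had 66.1, 71.1 and 74.5 normalized reads in the knockout and 26.7 to 34.0 in controls (log2 fold change 1.24, SE 0.0726, limma adjusted p = 8.01e-07).

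Of 24 genes that govern ribosome production, 6 rose (25%) and 2 fell (8.33%), against 19.7% and 20.2% of all genes. Eif4ebp1, which blocks cap-dependent initiation when mTOR is inactive, had 80.4 to 82.5 normalized reads in the knockout and 33.7 to 39.5 in controls (log2 fold change 1.09, limma adjusted p = 5.82e-07). Mxi1, a Max partner that opposes Myc, had 179 to 189 in the knockout and 66.9 to 80.6 in controls (log2 fold change 1.27, limma adjusted p = 2.7e-07). Ddit4, an inhibitor of mTOR signalling, rose with a log2 fold change of 1.203 (limma adjusted p = 0.000285). Myc, which drives ribosome production and was singled out after its values were seen, had 83.1, 62.8 and 51.1 in the knockout and 28.0 to 48.1 in controls (log2 fold change 0.79, limma adjusted p = 0.00603). Trp53 and Larp4 fell, by 0.41 and 0.35 on the log2 scale. Larp1, which binds pyrimidine-tract mRNAs, did not pass.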

How the data were processed

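Poly(A) RNA of 9 pools was sequenced as single reads of 61 bases. The tools named are RSEM 1.2.3, cutadapt 1.3 and CASAVA 1.8.2 and the build GRCm38, per the submitters' processing notes. RSEM splits a read with several matches between the genes it fits. No source used here states the strand setting or the annotation. The authors deposited a signal table of 12003 Ensembl genes that proved to be CPM after TMM scaling. All values (100%) were whole reads within 0.01 read, and the recovered reads entered edgeR 4.0.16 (4757 genes called against both controls) and DESeq2 1.42.0 as alternatives. Every gene has at least 0.962 in 3 libraries, so lower genes are not analysed here. A count of 0 allows up to 3 reads, and such limits cover counting error only.

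Groups came from the genotype label. The log2(value + 1) of each value was taken, which understates changes of low genes, and fitted with limma 3.58.1 (R 4.3.3, intensity trend, all 9 libraries, 1 mean per genotype). Tests were two-sided, with Benjamini-Hochberg adjustment over all 12003 genes and calls at an adjusted p under 0.05. P-values measure the spread between pools. The fits were tested on simulated data. TMM scaling rests on most genes being alike between libraries, so a shift of all mRNAs cannot be seen.

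Symbols and positions are from GENCODE M21 (GRCm38; 11935 identifiers matched, 68 did not), and start sites from RefSeq (GRCm38.p6). A copy was tied to the member with which it shares most 61-base windows. Members and gene lists were chosen with earlier results of these data known, as was the rule for genes named: the 10 highest and 10 lowest members, paralogues and partners, the 5 largest differences between controls, the 3 extremes per length, and up to 3 called genes per direction and the most abundant uncalled gene of each other list. Some genes are not reported here by name. Replicates of a genotype were not duplicates (chi-square per degree of freedom at least 8.79). Alternatives covered pseudocount, low-value filter, scaling, tool, trend, replicate block, libraries and copies.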

Additional observations from a re-analysis of the deposited data

How the results depend on the processing

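No called result changed direction under the alternatives run. Without the intensity trend limma called 24 members higher against both controls, 21 against floxed controls and 5 against Cre controls. These are 28.9, 25.3 and 6.02% of the members, against 18.8, 16.5 and 15.9% of all genes. With this fit 0 members were lower against Cre controls. Fits to the compared groups alone called 20 higher against floxed controls (24.1%, against 16.0% of all genes) and 39 against Cre controls (47.0%, against 18.2%). DESeq2 called 23 members higher against Cre controls (27.7%, against 17.2% of all genes) and 1 lower against both. Without a normalization factor, or with library size taken without the members, 1 member was lower against both controls; the median of all genes then shifted by -0.05 and -0.04, and the member median was 0.20 in each. With 1 library left out, members higher ranged from 12 to 54 against both controls, 16 to 59 against floxed and 3 to 39 against Cre controls. These are 14.5 to 65.1%, 19.3 to 71.1% and 3.61 to 47.0% of the members. Of all genes 15.2 to 20.3%, 13.4 to 17.3% and 12.8 to 17.8% were higher in such fits. Members lower ranged from 0 to 2, 0 to 1 and 0 to 1. Genes called between the controls ranged from 13 to 31, and were 74 by DESeq2 and 11 with these groups alone. Replicate numbers were not taken to pair the pools in the main fit. Of 9 same-numbered pairs of libraries, 6 correlated above 0.1 in their deviations and 3 did not. As a hint from the data and not the design, 8 of these 9 correlations were above 0, against 6 of 18 between different numbers. The highest were 0.52 for knockout 1 with floxed control 1 and 0.32 for knockout 1 with Cre control 1. Between different numbers the highest was 0.38, for knockout 2 with floxed control 3. Not every library correlated best with its own number. Deviations were taken from each genotype's own mean, so positive values between same numbers push those between different numbers below 0. The counts of correlations above 0 are thus not independent of each other. A replicate block gave 41 members higher (49.4%, against 19.9% of all genes) and 1 lower against both controls. With the block 49 were higher against floxed controls (59.0%, against 17.8%) and 19 against Cre controls (22.9%, against 16.8%). Between the controls 71 genes were then called. The causes were not tested. At 3 pools per genotype, member fold changes had a median SE of 0.0962 on the log2 scale, which limits calls of changes this small.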
